A study of Mus musculus with 22 samples.

Results

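Semaphorins and their plexin and neuropilin receptors were followed across mouse dorsal root ganglia (DRG) and cultured DRG neurons. The family was taken by symbol as every protein-coding semaphorin, plexin or neuropilin gene in the deposited tables, which gave 31 of 55487 genes: 20 semaphorins, 9 plexins and 2 neuropilins. The study measured poly-A RNA by strand-specific sequencing in 22 libraries of 8 groups. The 12 cultures were KO with recombinant periostin (rPOSTN), KO control, WT with rPOSTN and WT control, with 3 libraries each and 72 h in medium. The 10 ganglion libraries were KO after 5 days of imiquimod (IMQ, 2 libraries), KO vehicle (3), WT IMQ (2) and WT vehicle (3). KO stands for samples whose genotype is labelled Postn knock out (their titles say PTN, which the labels do not explain) and WT for wild type. Periostin is a secreted matrix protein that binds integrins, and IMQ activates TLR7 and is used in mice as a model of psoriasis. The labels give neither the design of the Postn allele nor the age or sex of the mice, and they do not say whether replicates are separate animals. A p-value below therefore measures the spread between these libraries, which may be technical.

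Semaphorins are secreted or membrane-bound guidance cues, and plexins are the receptors that pass their signal to the cytoskeleton. Secreted class 3 semaphorins mostly need neuropilin 1 or 2 as the ligand-binding partner of a plexin, while classes 4 to 7 are anchored in the membrane and bind plexins directly. In sensory ganglia these genes are known for steering axons and dendrites during development, and adult neurons, glia, vessels and immune cells go on using them.

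Library totals ran from 16666489 to 24118303 counts. Levels below are counts per 1000000 (CPM) on TMM-scaled library sizes, and levels of different genes are compared only per kilobase of annotated exon (CPM per kb). Postn, the targeted gene, had 67.1 to 426 CPM in KO cultures against 656 to 961 CPM in WT cultures, and 3.63 to 7.86 CPM in KO ganglia against 21.9 to 52.5 CPM in WT ganglia. The highest KO values were those of culture replicate 3, at 426 CPM with rPOSTN and 382 CPM in the control. Without KO control culture 3 the count of members changed between KO cultures and ganglia was 21, as with it, and without either library rPOSTN changed 0 of 31 members in KO by edgeR, as with both. Xist, which marks cells with an inactive X, was below 1 CPM in WT IMQ replicate 2 and in replicates 1 and 2 of both WT culture groups, and above 200 CPM in all other libraries. In vehicle replicate 1 of both genotypes long transcripts read low: log2 CPM changed by -0.15 (KO) and -0.13 (WT) per doubling of exon length. The members are long, with a median exon length of 7.72 kb against 4.08 kb for all genes tested in the ganglia, and 27 of 31 members in KO and 23 of 31 in WT had their lowest vehicle value in that library, as did 46.3% of 15264 genes in KO and 47.5% in WT.

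In the ganglia the family was led by a receptor. Plxnc1, the plexin that binds the GPI-anchored Sema7a, stood first with a mean of 39.3 CPM per kb over the 10 ganglion libraries. Next came the secreted Sema3b (32.7 CPM per kb), Sema7a (23.3 CPM per kb), Plxnd1 (19.0 CPM per kb), which is the receptor of Sema3e and a vascular guidance receptor, and the membrane-bound Sema4f (15.4 CPM per kb). In the cultures the order was another: Sema3b stood first at 73.7 CPM per kb, followed by Plxnd1 (45.2 CPM per kb), Sema6a (32.4 CPM per kb), Sema3g (28.3 CPM per kb) and Plxnb2 (24.5 CPM per kb). Plxnc1 was 11th of 31 there (9.32 CPM per kb), and Sema6a was 25th in the ganglia (1.98 CPM per kb). Sema3a, the classical repellent of sensory axons, was last in both, with 0.113 CPM per kb in cultures and 0.0302 CPM per kb in ganglia. It had only 3 to 13 counts per ganglion library, so it missed the filter on low counts there and 30 of 31 members were tested within the ganglia.

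**Figure D1:**
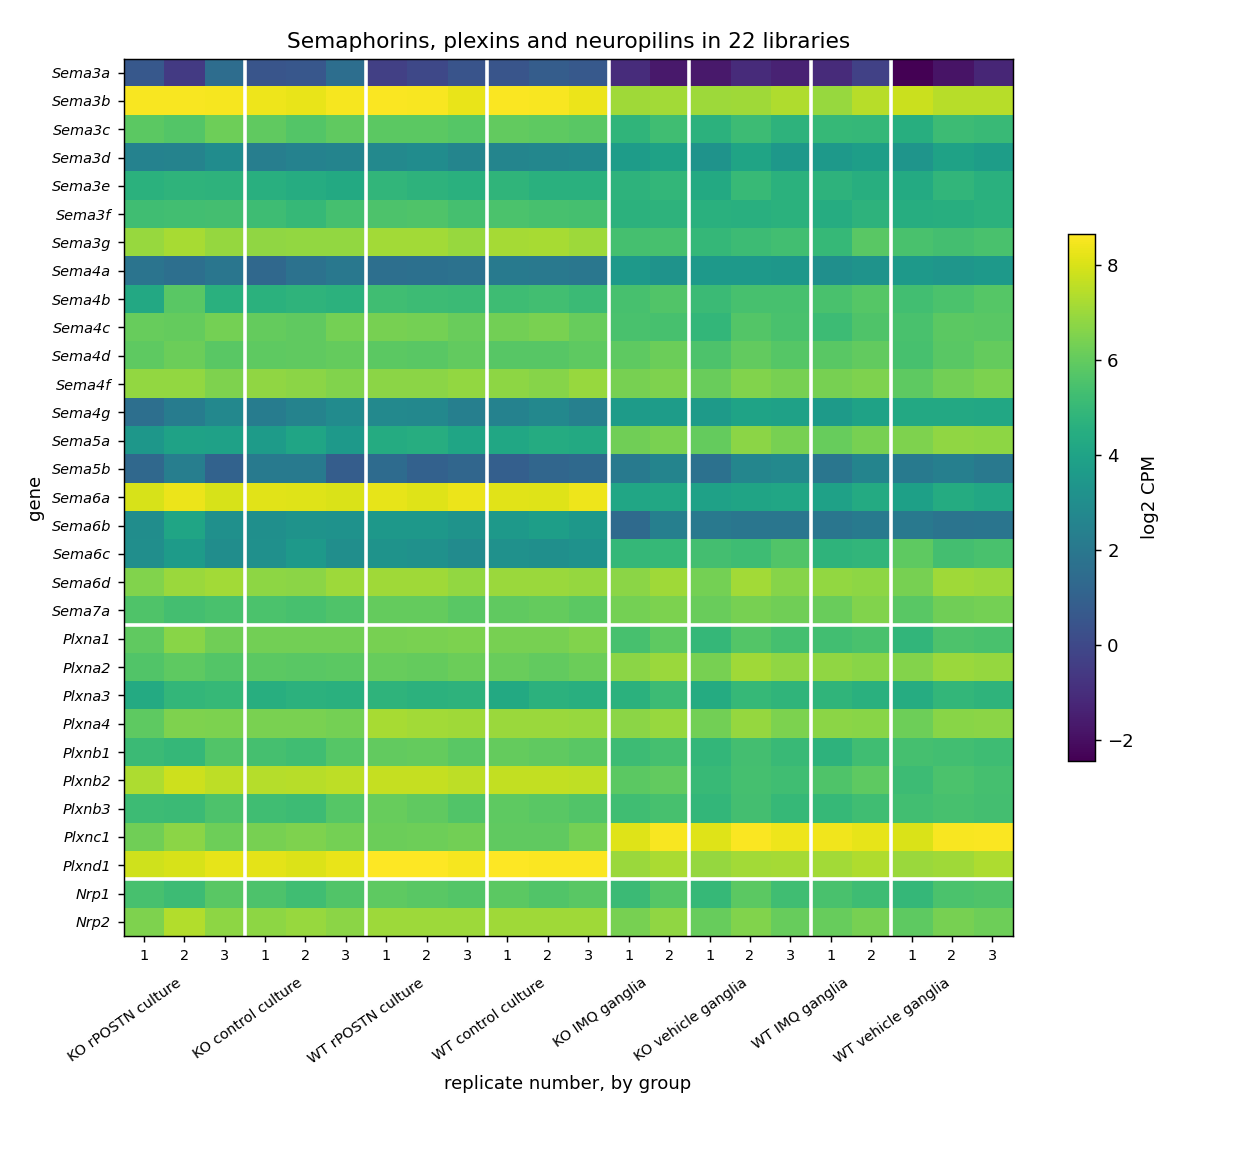
Colour gives log2 CPM of the 31 members (rows) in each of the 22 libraries (columns, grouped, with replicate numbers). The step between the 12 cultures on the left and the 10 ganglia on the right is clearest for Sema6a, Plxnb2 and Sema3g (higher in cultures) and for Plxnc1, Sema5a and Sema6c (lower in cultures).

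Cultures differed from ganglia in most members, as they did in most genes. By the rule below, 20 members changed the same way in both genotypes, and the share of all genes that did so was not counted. Control cultures were set against vehicle ganglia of the same genotype. In this comparison culture, deposited table and any difference in library preparation cannot be told apart. In WT the libraries also differed in Xist, at 0.42 to 1143 CPM in control cultures against 234 to 251 CPM in vehicle ganglia. In KO all libraries held it, at 710 to 1090 CPM against 204 to 236 CPM. The part of this imbalance in the WT changes was not tested. A member counted as changed at a Benjamini-Hochberg adjusted p (FDR) below 0.05 in edgeR's quasi-likelihood test over all genes. By that rule 21 of 31 members (67.7%) changed in KO, 12 higher and 9 lower, where 65.6% of all 17184 genes tested changed (32.6% higher, 33% lower). In WT 26 of 31 (83.9%) changed, 17 higher and 9 lower, where 72.1% of all 17065 genes changed (36.1% higher, 36% lower). These shares are close to the background in KO and somewhat above it in WT, and most genes changed in this comparison. The median log2 fold change of the 31 members was 0.19 in KO and 0.41 in WT, against -0.0048 and -0.0054 over all genes tested. In control cultures against vehicle ganglia 22 of 31 members lay apart in KO (13 higher, 9 lower), as 71.5% of genes did (36.7% higher, 34.8% lower), and 26 of 31 in WT (17 higher, 9 lower), as 76.9% did (38.8% higher, 38.1% lower). Over all groups together, 10 members were higher in each of the 12 cultures than in any of the 10 ganglia and 7 were lower in each, where 25.7% of 15264 genes with a mean of at least 1 CPM lay apart upward and 25.7% downward (51.4% in either direction).

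Among the receptors, 3 plexins moved most. Plxnb2, a receptor of Sema4c and Sema4d with roles in axon regeneration and macrophage motility, had 169, 175 and 186 CPM in KO control cultures, against 33.0, 41.2 and 37.9 CPM in KO vehicle ganglia. The WT control cultures had 197, 198 and 190 CPM, against 35.6, 44.9 and 41.5 CPM in WT vehicle ganglia. No culture overlapped a ganglion, and Plxnb2 was 4.65-fold higher in KO (log2 2.22 ± 0.12 SE, FDR 2.93e-07) and 4.81-fold higher in WT (log2 2.27 ± 0.10, FDR 1.36e-07). Plxnd1 had 288, 267 and 314 CPM in KO control cultures against 120, 136 and 144 CPM in KO vehicle ganglia. In WT it had 388, 383 and 379 CPM in control cultures against 124, 135 and 154 CPM in vehicle ganglia, so that the groups lay apart in both genotypes (log2 1.10 ± 0.12, FDR 2.76e-05 in KO; log2 1.48 ± 0.10, FDR 1.46e-06 in WT). Plxnc1 moved the other way. It had 83.6, 90.3 and 79.5 CPM in KO control cultures against 271, 384 and 330 CPM in KO vehicle ganglia, and 60.7, 62.2 and 79.5 CPM in WT control cultures against 262, 369 and 385 CPM in WT vehicle ganglia. The highest culture stayed far below the lowest ganglion (log2 -1.98 ± 0.14, FDR 1.52e-06 in KO; log2 -2.32 ± 0.16, FDR 2.02e-06 in WT).

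The A-type plexins, which pair with neuropilins and also bind class 5 and 6 semaphorins, did not move as a block. Plxna1 had 77.7, 78.2 and 78.4 CPM in KO control cultures against 31.1, 50.8 and 41.0 CPM in KO vehicle ganglia, and 82.7, 83.8 and 92.5 CPM in WT control cultures against 29.3, 46.4 and 44.1 CPM in WT vehicle ganglia (log2 0.91 ± 0.16 in KO and 1.12 ± 0.15 in WT, both changed). Plxna2 was lower in culture, with 57.2, 56.6 and 58.2 CPM in KO control cultures against 81.6, 133 and 112 CPM in KO vehicle ganglia. Its WT values were 68.2, 62.8 and 72.0 CPM in control cultures against 96.4, 127 and 119 CPM in vehicle ganglia, and the fold changes were log2 -0.95 ± 0.16 in KO and -0.75 ± 0.11 in WT. Of the summed CPM per kb of the 4 A-type plexins, Plxna1 held 41.1% in KO control cultures against 21.6% in KO vehicle ganglia, and Plxna2 held 15.9% against 30.3%. Plxna4, a receptor for Sema3a signalling in sensory axons, rose in WT (log2 0.41 ± 0.13, FDR 0.0173; FDR 0.0513 without WT control culture 1) and missed the threshold in KO (log2 -0.19 ± 0.15, FDR 0.291). Plxna3 passed in neither genotype (log2 -0.16 ± 0.16 in KO and -0.19 ± 0.14 in WT). Plxnb1, the main Sema4d receptor, and Plxnb3, a receptor of Sema5a, rose in WT (log2 0.64 ± 0.10 and 0.45 ± 0.10) and missed the threshold in KO (log2 0.33 ± 0.16 and 0.29 ± 0.18). Whether the genotypes differ in these culture effects was not tested.

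Nrp2, the neuropilin that favours Sema3f and also serves as a VEGF co-receptor, had 108, 122 and 105 CPM in KO control cultures against 66.3, 93.1 and 66.5 CPM in KO vehicle ganglia. WT control cultures had 132, 134 and 133 CPM, against 59.7, 82.1 and 74.3 CPM in WT vehicle ganglia. It was higher in both genotypes without overlap (log2 0.55 ± 0.15, FDR 0.00826 in KO; log2 0.89 ± 0.11, FDR 7.87e-05 in WT), though without KO vehicle replicate 3 the KO change lost its call (log2 0.46, FDR 0.0569). Nrp1, the receptor subunit for Sema3a, had 47.5, 38.1 and 50.1 CPM in KO control cultures against 31.5, 58.0 and 38.4 CPM in KO vehicle ganglia, values that overlap (log2 0.06 ± 0.21, FDR 0.799). In WT it had 58.3, 49.6 and 55.2 CPM in control cultures against 30.6, 45.8 and 47.9 CPM in vehicle ganglia, which lie apart narrowly (log2 0.40 ± 0.15, FDR 0.0416). That WT call was lost without WT control culture 1 (log2 0.36, FDR 0.124) or 3 (log2 0.40, FDR 0.104), with a length offset (log2 0.26, FDR 0.0568) and with all 22 libraries in 1 fit (log2 0.39, FDR 0.105).

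The secreted class 3 ligands were mostly higher in culture. Sema3g, an Nrp2 ligand known from endothelium, had 111, 115 and 115 CPM in KO control cultures against 30.5, 36.2 and 39.1 CPM in KO vehicle ganglia, and 141, 145 and 128 CPM in WT control cultures against 44.7, 39.9 and 44.5 CPM in WT vehicle ganglia. All cultures lay above all ganglia, at 3.18-fold in KO (log2 1.67 ± 0.12, FDR 1.74e-06) and 3.22-fold in WT (log2 1.69 ± 0.10, FDR 5.28e-07). Sema3b had 330, 314 and 359 CPM in KO control cultures against 130, 136 and 161 CPM in KO vehicle ganglia, and 377, 370 and 315 CPM in WT control cultures against 214, 176 and 174 CPM in WT vehicle ganglia (log2 1.21 ± 0.12 in KO and 0.92 ± 0.12 in WT). Sema3b held 61.7% of the summed class 3 CPM per kb in KO control cultures and 58.9% in KO vehicle ganglia, so it was the main class 3 transcript in both settings. Sema3c, a ligand of both neuropilins and of Plxnd1, had 61.8, 51.0 and 61.7 CPM in KO control cultures against 25.5, 35.5 and 26.6 CPM in KO vehicle ganglia. Its WT levels were 62.9, 59.3 and 55.3 CPM in control cultures against 22.8, 35.8 and 33.2 CPM in vehicle ganglia, again without overlap (log2 0.97 ± 0.15 in KO and 0.96 ± 0.15 in WT). Sema3f, the main Nrp2 ligand, was higher by a smaller step, at 31.7 to 47.5 CPM over all 12 cultures against 21.8 to 26.8 CPM over all 10 ganglia (log2 0.58 ± 0.14 in KO and 0.89 ± 0.09 in WT).

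Sema3a was also higher, but from few counts: 29, 30 and 61 counts (1.41, 1.5 and 2.95 CPM) in KO control cultures against 5, 10 and 7 counts (0.315, 0.484 and 0.391 CPM) in KO vehicle ganglia. The WT counts were 27, 34 and 38 (1.42, 1.79 and 1.58 CPM) in control cultures against 3, 5 and 8 (0.186, 0.279 and 0.427 CPM) in vehicle ganglia, and the change passed in both genotypes (log2 2.25 ± 0.45, FDR 0.00138 in KO; log2 2.39 ± 0.33, FDR 0.000169 in WT). Sema3d was the class 3 member that fell. It had 4.94, 5.56 and 5.90 CPM in KO control cultures against 9.52, 16.2 and 11.2 CPM in KO vehicle ganglia, and 6.17, 6.43 and 7.17 CPM in WT control cultures against 10.1, 15.5 and 13.2 CPM in WT vehicle ganglia (log2 -1.19 ± 0.22 in KO and -0.96 ± 0.17 in WT). Sema3e, the ligand that binds Plxnd1 without a neuropilin, ranged from 19.6 to 28.6 CPM in cultures and from 19.9 to 32.6 CPM in ganglia and passed in neither genotype (log2 -0.29 ± 0.18, 95% interval -0.69 to 0.11 in KO; log2 0.07 ± 0.13, 95% interval -0.23 to 0.37 in WT).

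The class 6 semaphorins, transmembrane ligands of A-type plexins, split in both directions, and Sema6a showed the largest fold change of all 31 members. Sema6a had 285, 275 and 257 CPM in KO control cultures against 15.1, 16.2 and 17.5 CPM in KO vehicle ganglia, and 286, 272 and 326 CPM in WT control cultures against 14.3, 20.8 and 18.7 CPM in WT vehicle ganglia. Its lowest culture value was far above its highest ganglion value, at 16.4-fold in KO (log2 4.04 ± 0.13, FDR 3.20e-08) and 16.5-fold in WT (log2 4.04 ± 0.15, FDR 5.93e-08). Sema6a held 67.8% of the summed class 6 CPM per kb in KO control cultures against 9.29% in KO vehicle ganglia, and 67.5% in WT control cultures against 9.28% in WT vehicle ganglia. Sema6b, at a low level, had 8.38, 9.52 and 9.33 CPM in KO control cultures against 4.16, 3.82 and 3.74 CPM in KO vehicle ganglia. WT control cultures had 11.3, 13.5 and 11.1 CPM of Sema6b, against 4.08, 3.58 and 3.63 CPM in WT vehicle ganglia (log2 1.19 ± 0.19 in KO and 1.68 ± 0.15 in WT). Sema6c fell instead, to 8.62, 11.8 and 8.22 CPM in KO control cultures, against 40.4, 37.3 and 49.0 CPM in KO vehicle ganglia, and to 8.91, 8.60 and 9.29 CPM in WT control cultures, against 60.1, 40.7 and 44.0 CPM in WT vehicle ganglia. Neither genotype overlapped (log2 -2.17 ± 0.18, FDR 4.34e-06 in KO; log2 -2.43 ± 0.17, FDR 1.65e-06 in WT). Sema6d, a Plxna1 ligand, passed in neither (log2 0.09 ± 0.18 in KO and 0.10 ± 0.16 in WT), at 92.5 to 136 CPM in cultures and 80.7 to 137 CPM in ganglia.

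Class 5 semaphorins, which carry thrombospondin repeats, were lower in culture. Sema5a had 12.6, 16.8 and 11.4 CPM in KO control cultures against 65.8, 104 and 82.1 CPM in KO vehicle ganglia, and 17.9, 21 and 19.4 CPM in WT control cultures against 90.4, 113 and 108 CPM in WT vehicle ganglia. It fell without overlap in both genotypes, by 2.65 on the log2 scale in KO (SE 0.20, FDR 2.24e-06) and by 2.41 in WT (SE 0.11, FDR 1.70e-07). Sema5b had 4.36, 4.36 and 1.79 CPM in KO control cultures against 3.22, 6.19 and 6.81 CPM in KO vehicle ganglia, which overlap and did not pass (log2 -0.65 ± 0.38, FDR 0.149). In WT it had 1.90, 2.32 and 2.54 CPM in control cultures against 4.27, 5.14 and 4.16 CPM in vehicle ganglia and fell (log2 -0.99 ± 0.19, FDR 0.0012).

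Of the class 4 members, Sema4a and Sema4g fell most. Sema4a, known from immune cells and retina, had 2.47, 3.31 and 4.06 CPM in KO control cultures against 11.3, 11.4 and 10.8 CPM in KO vehicle ganglia, and 4.22, 4.17 and 3.92 CPM in WT control cultures against 11.7, 10.6 and 11.5 CPM in WT vehicle ganglia (log2 -1.79 ± 0.22 in KO and -1.45 ± 0.13 in WT). Sema4g, a Plxnb2 ligand, had 4.70, 5.81 and 7.45 CPM in KO control cultures against 12.3, 16.1 and 14.9 CPM in KO vehicle ganglia. Its WT values were 5.53, 6.59 and 5.29 CPM in control cultures against 19.1, 19.0 and 18.2 CPM in vehicle ganglia (log2 -1.29 ± 0.21 in KO and -1.69 ± 0.13 in WT). Sema4b fell in both genotypes by less (log2 -0.65 ± 0.13 in KO and -0.31 ± 0.12, FDR 0.0379, in WT), and its WT call was lost when any of 5 libraries was left out: WT vehicle replicate 2 (log2 -0.31, FDR 0.0823) or 3 (-0.19, FDR 0.197), or WT control culture 1 (-0.30, FDR 0.108), 2 (-0.34, FDR 0.0639) or 3 (-0.25, FDR 0.149). That WT call was also lost with all 22 libraries in 1 fit (log2 -0.31, FDR 0.26) and with the replicate block (log2 -0.30, FDR 0.0534). Sema4c, a Plxnb2 ligand, rose in both (log2 0.71 ± 0.18 in KO and 0.54 ± 0.12 in WT). Sema4f had 112, 104 and 94.3 CPM in KO control cultures against 69.0, 92.0 and 83.6 CPM in KO vehicle ganglia, which missed the threshold (log2 0.32 ± 0.13, FDR 0.0522), and 108, 99.6 and 121 CPM in WT control cultures against 60.1, 77.1 and 88.4 CPM in WT vehicle ganglia, which passed (log2 0.55 ± 0.14, FDR 0.0052). Sema4d, the ligand of Plxnb1 and of Cd72 on lymphoid cells, passed in neither (log2 0.19 ± 0.13 in KO and 0.06 ± 0.14 in WT), at 54.8 to 72.3 CPM in cultures and 42.6 to 71.4 CPM in ganglia. Sema7a had 45.2, 43.2 and 48.5 CPM in KO control cultures against 68.4, 81.7 and 75.0 CPM in KO vehicle ganglia and fell (log2 -0.74 ± 0.12, FDR 0.000293). In WT it had 60.7, 64.2 and 58.1 CPM in control cultures against 55.5, 74.8 and 81.0 CPM in vehicle ganglia and did not pass (log2 -0.20 ± 0.13, FDR 0.184). Single vehicle libraries and the length offset decided further calls. Without WT vehicle replicate 1, Sema7a and Plxna3 fell in WT as well. Without KO vehicle replicate 1, Plxna4, Sema3e and Sema5b fell in KO, and without KO vehicle replicate 2, Nrp1, Plxnb1, Plxnb3, Sema4d, Sema4f and Sema6d rose in KO. With the length offset Plxna3 fell in WT, and in KO Plxna4 and Sema3e fell and Sema4f rose, so that Plxna4 was then called lower in KO and higher in WT.

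**Figure D2:**
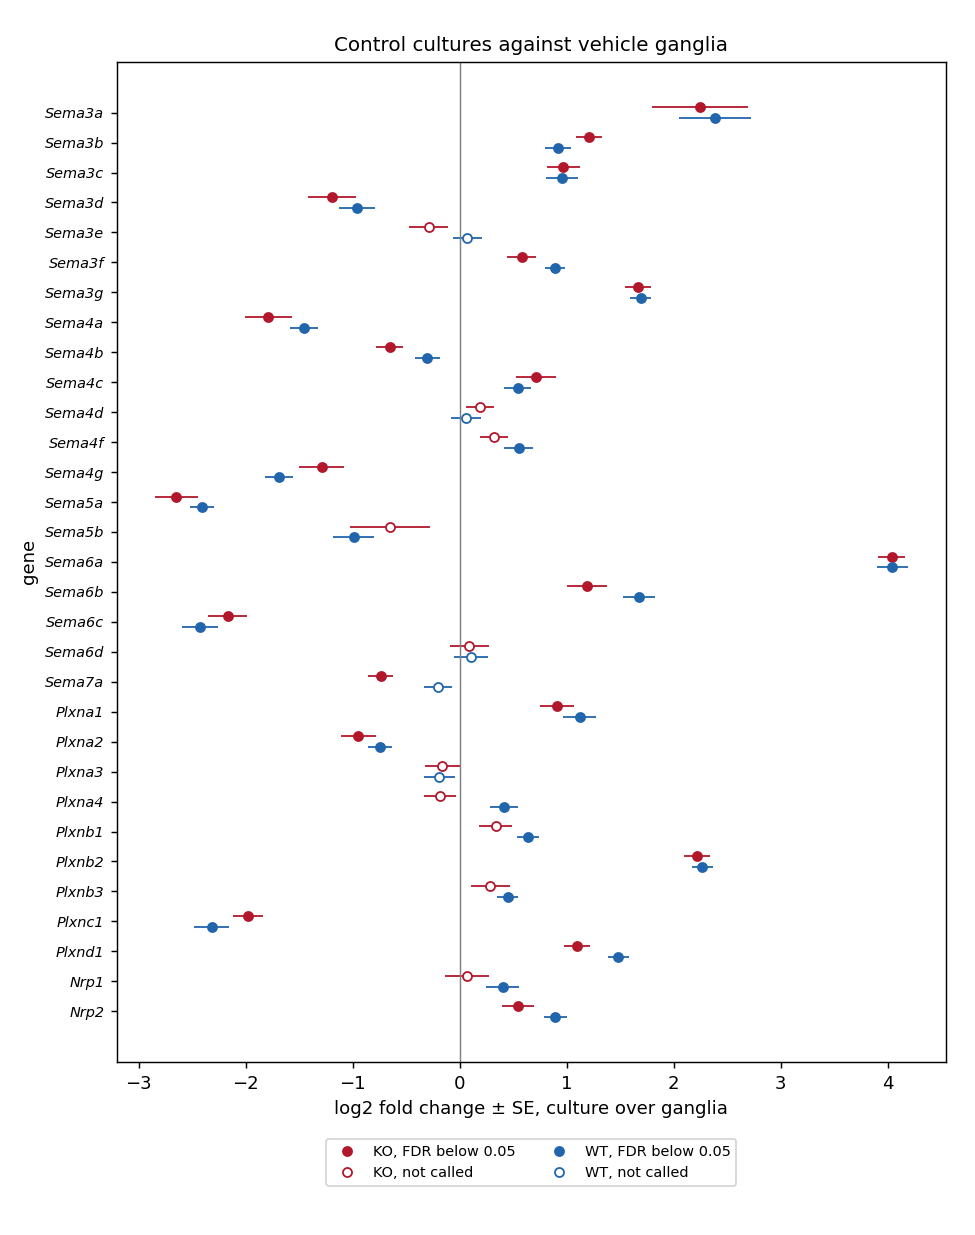
Points give the log2 fold change of each member in control cultures over vehicle ganglia with its SE (3 libraries in each group), KO in red above WT in blue; filled points passed FDR below 0.05. Sema6a lies at 4.04 in both genotypes, and Sema5a, Sema6c and Plxnc1 lie lowest, between -2.65 and -1.98.

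**Figure D3:**
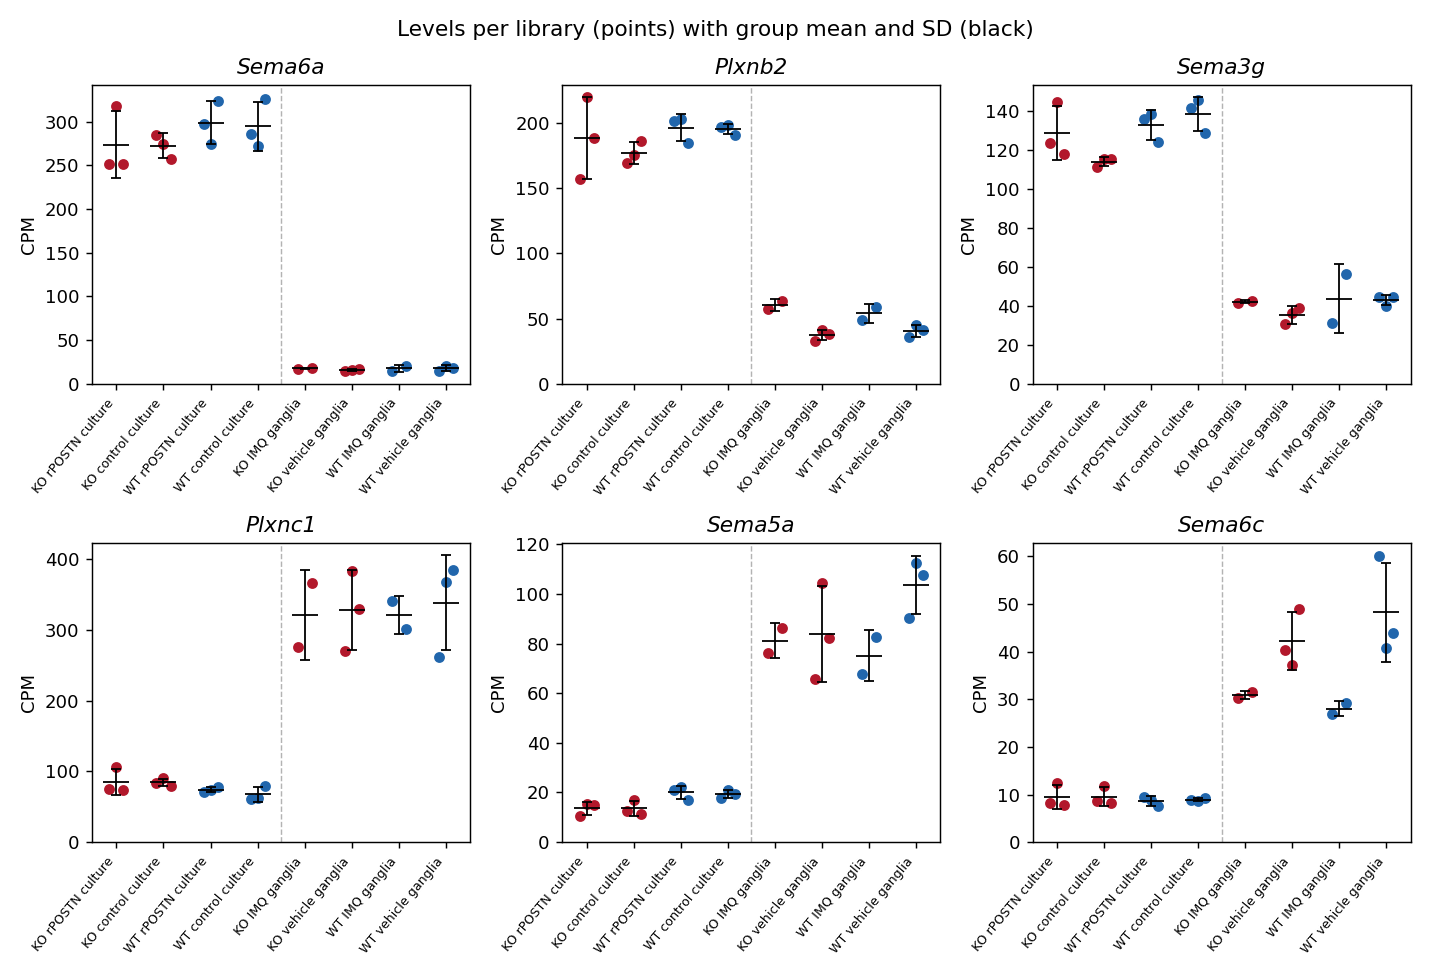
CPM of 6 members in every library (points; KO red, WT blue) with the group mean and SD in black, cultures left of the dashed line and ganglia right of it. No culture overlaps a ganglion in any of the 6 panels.

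Genes that work with the family moved in both directions too. So did all genes tested, of which 65.6% changed in KO (32.6% higher, 33% lower) and 72.1% in WT (36.1% higher, 36% lower). Of 15 tested semaphorin co-receptors 9 were higher and 4 lower in KO cultures, and 10 were higher and 4 lower in WT cultures. Met, the HGF receptor that associates with B-type plexins, was higher by log2 3.95 ± 0.24 in KO and 4.10 ± 0.18 in WT. Nrcam, the adhesion molecule that joins neuropilin complexes, was higher by 1.55 ± 0.13 and 1.97 ± 0.10 on the same log2 scale, and Itgb1, the integrin subunit through which Sema7a acts, by 1.47 ± 0.14 and 1.58 ± 0.09. Of 29 signalling genes 10 rose and 7 fell in KO and 13 rose and 10 fell in WT. The small GTPases Rnd1 and Rnd3 rose most (Rnd1 log2 3.26 ± 0.19 in KO and 3.40 ± 0.18 in WT, Rnd3 log2 2.83 ± 0.15 and 3.10 ± 0.14). Of 5 other neuropilin ligands of the VEGF family 1 rose and 3 fell in KO, and 1 rose and 2 fell in WT. In the other guidance families (slits, netrins, ephrins and their receptors) 29 of 41 genes changed in KO and 31 of 41 in WT.

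Cell type markers differed alongside. The 10 neuron markers summed to 6023 to 6539 CPM in KO control cultures against 19040 to 20200 CPM in KO vehicle ganglia, and to 6761 to 6970 CPM in WT control cultures against 17400 to 18800 CPM in WT vehicle ganglia, with 9 of 10 lower in each genotype. All 7 myelinating Schwann markers were lower in each genotype (1586 to 2232 CPM in KO control cultures against 6455 to 7660 CPM in KO vehicle ganglia; 1524 to 1989 CPM in WT control cultures against 9863 to 15100 CPM in WT vehicle ganglia). Endothelial markers were higher for 4 of 6 in KO (186.7 to 194 CPM in control cultures against 71.5 to 90.1 CPM in vehicle ganglia) and for 5 of 6 in WT (233 to 259 CPM against 76.8 to 98.0 CPM). All 4 proliferation markers were higher in each genotype, at 74.3 to 153 CPM in KO control cultures against 5.66 to 22.6 CPM in KO vehicle ganglia and 86.0 to 99.4 CPM in WT control cultures against 7.30 to 13.1 CPM in WT vehicle ganglia. Of 8 macrophage markers 7 fell in KO and 6 in WT, while Cd68 rose in each, and the sum was 63.7 to 73.0 CPM in KO control cultures against 89.4 to 122 CPM in KO vehicle ganglia and 67.8 to 78.3 CPM in WT control cultures against 87.3 to 123 CPM in WT vehicle ganglia. Of 6 satellite glia markers 2 rose and 4 fell in each genotype, and of 6 fibroblast markers 1 rose and 2 fell in KO and 1 rose and 4 fell in WT. Both sums were lower in cultures of each genotype. Mural markers summed to 138.5 to 166.9 CPM in KO control cultures against 287.5 to 353.5 CPM in KO vehicle ganglia. In WT the mural sums were 179.8 to 195 CPM against 284.9 to 373.3 CPM. Non-myelinating Schwann markers summed to 633.4 to 727 CPM against 1338 to 1782 CPM in KO. Their WT sums were 777.4 to 870.8 CPM against 1371 to 1819 CPM. None of these lists had a marker at 0. Their part in the family's changes was not tested, and in bulk RNA fewer cells of a type and less RNA per cell cannot be told apart.

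Promoters of 4 members are shown because these genes moved far and in the same direction in both genotypes: Sema3g and Plxnd1 were higher in culture, Sema5a and Plxnc1 lower. They have the largest mean fold change, for each direction, among the members with 10 CPM or more in a group and 1 start site in the table. The sequences are the 250 bases before the annotated start on the gene's strand, 5′ to 3′, from the RefSeq promoter table (build GRCm38.p6), which holds 26 of the 31 members (not Plxna1, Plxna4, Sema3b, Sema3f or Sema6a). Capitals mark the GC box, GGGCGG or its reverse complement CCGCCC, the site bound by Sp1-type factors. The Sema3g window is chr14:31217623-31217872 (plus strand), that of Plxnd1 chr6:115995006-115995255 (minus), that of Sema5a chr15:32244563-32244812 (plus) and that of Plxnc1 chr10:94944846-94945095 (minus).
Sema3g: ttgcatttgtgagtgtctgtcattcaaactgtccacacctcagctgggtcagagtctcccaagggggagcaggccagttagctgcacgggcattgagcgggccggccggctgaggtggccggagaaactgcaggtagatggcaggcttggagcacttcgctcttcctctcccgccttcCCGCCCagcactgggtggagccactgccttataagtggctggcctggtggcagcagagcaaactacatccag
Plxnd1: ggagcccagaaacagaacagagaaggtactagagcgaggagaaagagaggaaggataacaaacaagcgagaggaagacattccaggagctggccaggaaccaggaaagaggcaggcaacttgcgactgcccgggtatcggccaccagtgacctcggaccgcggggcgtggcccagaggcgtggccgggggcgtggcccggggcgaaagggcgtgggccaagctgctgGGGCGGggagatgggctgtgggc
Sema5a: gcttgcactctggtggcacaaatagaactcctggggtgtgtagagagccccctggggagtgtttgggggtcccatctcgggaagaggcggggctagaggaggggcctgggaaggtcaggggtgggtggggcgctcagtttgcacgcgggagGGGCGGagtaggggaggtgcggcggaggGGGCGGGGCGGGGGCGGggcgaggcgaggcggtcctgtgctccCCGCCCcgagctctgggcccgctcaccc
Plxnc1: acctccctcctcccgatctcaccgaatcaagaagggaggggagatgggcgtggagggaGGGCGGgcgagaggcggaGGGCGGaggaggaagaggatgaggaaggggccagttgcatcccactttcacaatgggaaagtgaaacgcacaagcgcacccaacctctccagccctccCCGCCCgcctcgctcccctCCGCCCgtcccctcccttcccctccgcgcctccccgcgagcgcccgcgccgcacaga

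Sema3g and Plxnd1 each held 1 GC box in this window, Sema5a held 5 and Plxnc1 held 4. GC content was 60.4% for Sema3g, 64.8% for Plxnd1, 72% for Sema5a and 68.8% for Plxnc1. A GC box was present in 27 of the 37 windows of the 26 members (73%), against 32.7% of all 32851 windows of that length, and the median GC content was 64% against 52.4%. Among members that changed alike in both genotypes, 10 of 11 windows of higher members and 10 of 13 windows of lower members had one. The table lacks 4 of the 12 members higher in both genotypes (Plxna1, Sema3b, Sema3f and Sema6a), and the difference between the directions was not tested. The TATA box (TATAAA) was in none of the 37 member windows and in 12.4% of all windows, the AP-1 site (TGANTCA) in 3 (8.11% against 6.75%) and the E-box (CACGTG) in 2 (5.41% against 6.02%), on either strand. A match is a description of these letters, not a site shown to be bound.

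Between the genotypes in culture only a side-by-side reading is possible, because genotype and deposited table cannot be told apart. Over both treatments, 7 members had all 6 KO cultures below all 6 WT cultures and 0 had them above, where 5.18% and 3.96% of 15264 genes with a mean of at least 1 CPM did so. The lowest, median and highest KO values of Plxna4 were 59.8, 85.6 and 91.0 CPM, against 122, 129.9 and 145 CPM in WT cultures. Plxnd1 had 230.0, 277 and 314 CPM in KO cultures against 361, 385 and 399 CPM in WT cultures. Both receptors lay well apart. WT replicate 3, which held Xist, had the lowest WT value of each treatment, at 122 (control) and 134.5 CPM (rPOSTN) for Plxna4 and 379 and 361 CPM for Plxnd1. For Plxna2 that replicate was the highest instead, at 72.0 and 71.2 CPM. The other 5 were Plxna2, Plxnb1, Sema3f, Sema5a and Sema7a, some of them narrowly: Sema5a reached 16.8 CPM at most in KO cultures, against at least 17.0 CPM in WT cultures. WT replicate 3 was also lowest in both treatments for Plxnb1 (55.4 and 55.9 CPM), Sema3f (41.04 and 41.6) and Sema7a (58.1 and 55.6). For Sema5a it was lowest only with rPOSTN. In KO, replicate 3 held the most Postn. It was the highest KO library in each treatment for Plxnd1 (314 and 305 CPM), Plxnb1 (52.4 and 49.9) and Sema3f (40.95 and 40.7). It was not for Plxna2, Plxna4, Sema5a or Sema7a. The part of these replicates was not tested.

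Few members passed the threshold after IMQ. In KO ganglia 1 of 30 tested members changed, Plxnb2, where 1.1% of 17197 genes changed (1.09% higher, 0.0174% lower). In WT ganglia 0 of 30 changed by edgeR, where 1.3% of genes did (1.12% higher, 0.18% lower). An unadjusted p under 0.05 was found for 5 of 30 members and for 1251 of 17197 genes. DESeq2 called 1 member there, Sema6c, and 369 of 17197 genes. Plxnb2 had 57.4 and 63.5 CPM in KO IMQ ganglia against 33.0, 41.2 and 37.9 CPM in KO vehicle ganglia, and 48.9 and 59.2 CPM in WT IMQ ganglia against 35.6, 44.9 and 41.5 CPM in WT vehicle ganglia. Both IMQ libraries were above all vehicle libraries in each genotype, at log2 0.68 ± 0.13 in KO (1.60-fold, FDR 0.0495) and 0.41 ± 0.13 in WT (1.33-fold, FDR 0.361). The KO call is borderline: it was lost without any 1 of the 5 KO libraries (log2 0.61 to 0.75, FDR 0.0573 to 0.38). Without WT IMQ replicate 2, the library with little Xist, the WT value was 0.27 (FDR 1).

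Sema6c was lower after IMQ in both genotypes without passing the threshold. It had 30.3 and 31.5 CPM in KO IMQ ganglia against 40.4, 37.3 and 49.0 CPM in KO vehicle ganglia, and 26.9 and 29.2 CPM in WT IMQ ganglia against 60.1, 40.7 and 44.0 CPM in WT vehicle ganglia. No IMQ library reached a vehicle library in either genotype (log2 -0.46 ± 0.19, FDR 0.545 in KO; log2 -0.79 ± 0.19, FDR 0.108 in WT; -0.84, FDR 0.496, in WT without IMQ replicate 2). DESeq2 and the fit with no filter on low counts called it in WT, at FDR 0.00791 and 0.0107. Plxnb2 and Sema6c were the only members whose libraries lay apart in the same direction in both genotypes, which 4.87% of 15264 genes did upward and 2.37% downward. Sema4g had the next smallest p after Sema6c in WT, with 12.2 and 15.6 CPM in WT IMQ ganglia against 19.1, 19.0 and 18.2 CPM in WT vehicle ganglia (log2 -0.44 ± 0.15, FDR 0.347). Without WT IMQ replicate 2 its log2 fold change was -0.62. Counting all members that lay apart, there were 5 of 30 in KO (16.7%, where 23.6% of genes did), 4 of them higher (12.7% of genes) and 1 lower (11%). In WT there were 6 of 30 (20%, where 21.4% did), 1 higher (11.5% of genes) and 5 lower (9.91%). Nrp1 and Nrp2 overlapped between IMQ and vehicle in both genotypes. Nrp2 had 83.4 and 111 CPM in KO IMQ ganglia against 66.3, 93.1 and 66.5 CPM in KO vehicle ganglia, and 67.7 and 82.5 CPM in WT IMQ ganglia against 59.7, 82.1 and 74.3 CPM in WT vehicle ganglia. Nrp1 had 34.9 and 52.6 CPM in KO IMQ ganglia against 31.5, 58.0 and 38.4 CPM in KO vehicle ganglia, and 44.7 and 36.8 CPM in WT IMQ ganglia against 30.6, 45.8 and 47.9 CPM in WT vehicle ganglia.

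**Figure D4:**
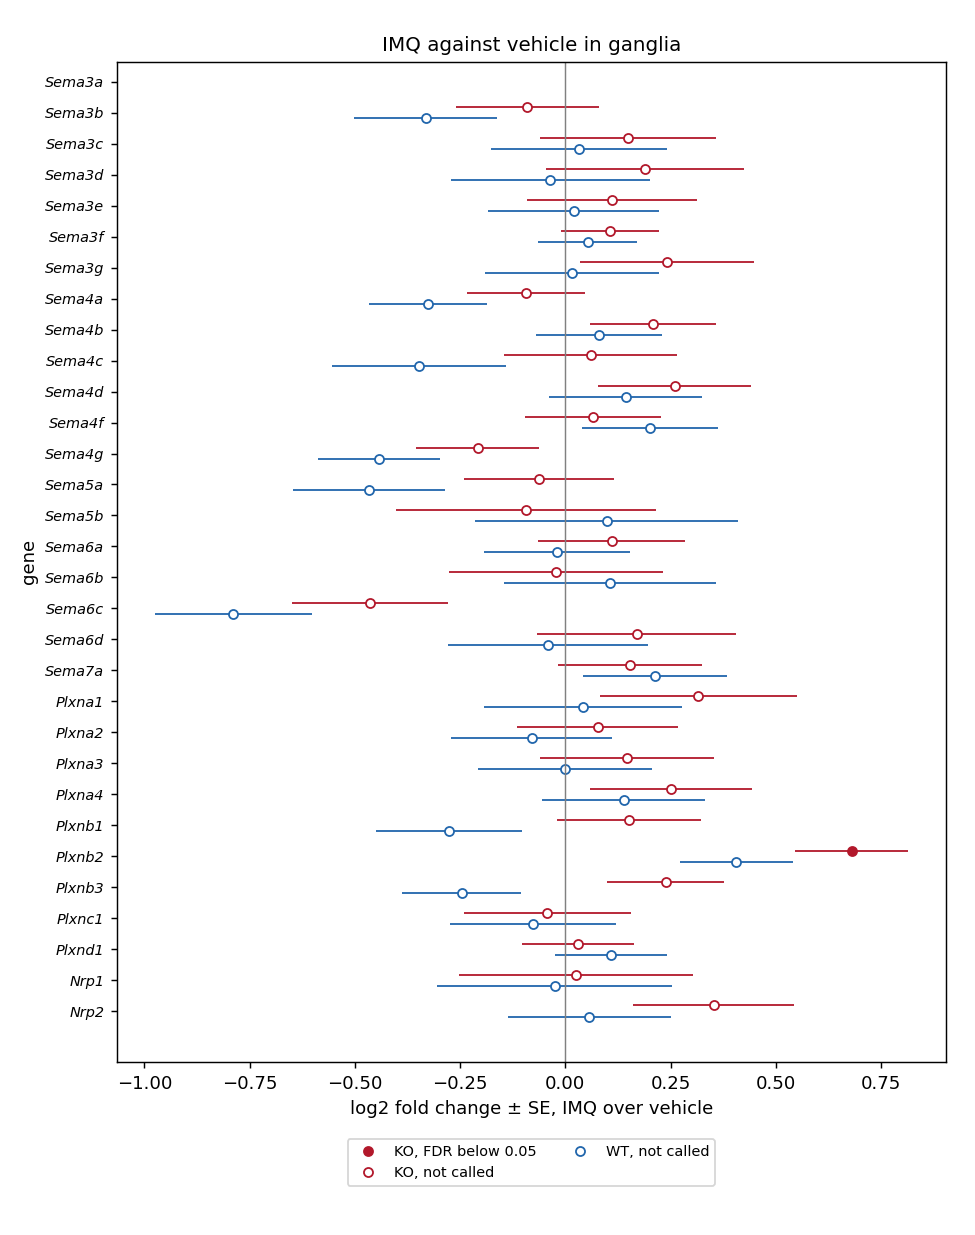
Points give the log2 fold change of 30 members in IMQ over vehicle ganglia (2 against 3 libraries) with its SE, KO in red above WT in blue. Only Plxnb2 in KO passed FDR below 0.05 (filled point, 0.68), Sema3a was not tested, and Sema6c is the lowest member in both genotypes (-0.46 in KO, -0.79 in WT).

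Markers of other cells moved in the same ganglia. Of 8 macrophage markers 6 rose in KO and 7 in WT, and their sum was 346.5 to 409 CPM in KO IMQ ganglia against 89.4 to 122 CPM in KO vehicle ganglia, and 419.7 to 475 CPM in WT IMQ ganglia against 87.3 to 123 CPM in WT vehicle ganglia. The 7 myelinating Schwann markers summed to 5207 to 5669 CPM in KO IMQ ganglia against 6455 to 7660 CPM in KO vehicle ganglia, and to 5182 to 7464 CPM in WT IMQ ganglia against 9863 to 15100 CPM in WT vehicle ganglia. All 7 had a negative log2 fold change in each genotype, and 0 of 7 in KO and 1 of 7 in WT passed by edgeR, with an unadjusted p under 0.05 for 1 in KO and 6 in WT. No marker of either list was at 0, and their part in the Plxnb2 and Sema6c values was not tested. Of the 49 tested partner genes, Cd72, the receptor of Sema4d on B cells, rose in KO (log2 3.24 ± 0.32, FDR 0.00126) and in WT (log2 3.46 ± 0.32, FDR 0.000665). All 3 B cell markers had a negative log2 fold change in WT and 2 of 3 in KO, with 0 passing. Their sum was low, at 1.66 to 7.26 CPM over the ganglia, and which cells hold the Cd72 RNA was not tested. Tyrobp, the adaptor of the Sema6d receptor complex in myeloid cells, and Fes, a kinase downstream of Sema3a receptors, rose in WT (log2 2.11 ± 0.35, FDR 0.0185, and 0.98 ± 0.20, FDR 0.0496). None of 40 other guidance genes changed in either genotype by edgeR, with an unadjusted p under 0.05 for 2 in KO and 1 in WT. Of all 17197 genes 1442 had such a p in KO and 1251 in WT. The IMQ effect did not differ detectably between genotypes for any member. The interaction (KO minus WT) called 0 of 30 members by edgeR, where 0% of 17197 genes were called, and 0 members by DESeq2 (5 genes). It was positive for 25 of 30 members (median log2 0.15, against -0.0044 over all genes). The share of all genes with a positive interaction was not counted. Per doubling of exon length, log2 CPM changed by 0.006 and 0.11 in KO IMQ libraries and by -0.01 and 0.01 in WT IMQ libraries. It changed by -0.15, 0.10 and -0.04 in KO vehicle libraries and by -0.13, 0.05 and 0.05 in WT vehicle libraries. The members are long, and the part of length in these signs was not tested. The 95% interval lay within -1 and 1 for 27 of 30 members (the others were Plxna1, Sema4c and Sema5b). An unadjusted p under 0.05 was found for 364 of 17197 genes and for 1 member, Plxnb3 (log2 0.48 ± 0.20, FDR 0.999). Its 95% interval ran from 0.04 to 0.93. Plxnb3 had 38.3 and 42.5 CPM in KO IMQ ganglia against 29.6, 40.2 and 32.0 CPM in KO vehicle ganglia, and 31.5 and 38.0 CPM in WT IMQ ganglia against 39.4, 43.0 and 40.8 CPM in WT vehicle ganglia. Plxnb1 and Sema5a came next (log2 0.43 ± 0.24 and 0.40 ± 0.25). Without WT IMQ replicate 2 the interactions were log2 0.62 for Plxnb3, 0.71 for Plxnb1 and 0.54 for Sema5a (FDR 0.9999 each).

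No member passed the threshold between the Postn genotypes in the ganglia. KO against WT called 0 of 30 members in vehicle ganglia, where 0.0116% of genes changed, and 0 of 30 in IMQ ganglia, where 0.00581% did. DESeq2 called 0 members in each, where it called 31 genes in vehicle and 2 in IMQ ganglia. Unadjusted p under 0.05 numbered 2 and 0 of 30 members, against 530 and 318 of 17197 genes. All 95% intervals of the members lay within -1 and 1 on the log2 scale. In vehicle ganglia Sema4g had the smallest p, with 12.3, 16.1 and 14.9 CPM in KO against 19.1, 19.0 and 18.2 CPM in WT (log2 -0.37 ± 0.13, FDR 0.9999). Sema3b had 130, 136 and 161 CPM in KO against 214, 176 and 174 CPM in WT (log2 -0.40 ± 0.15, FDR 0.9999), and Plxnb3 had 29.6, 40.2 and 32.0 CPM in KO against 39.4, 43.0 and 40.8 CPM in WT, which overlap (log2 -0.27 ± 0.13). Together with Sema3g, Sema4g and Sema3b were the 3 of 30 members with all KO vehicle libraries below all WT ones, which 4.01% of genes showed (6.91% lay apart in either direction, 2.9% upward). The myelinating Schwann markers moved with them, all 7 with a negative log2 fold change (median -0.66, 0 passing, 6 with an unadjusted p under 0.05), and of 6 fibroblast markers 5 were negative (median -0.51, 4 with an unadjusted p under 0.05). Their part was not tested. In IMQ ganglia Nrp2 had the smallest p, with 83.4 and 111 CPM in KO against 67.7 and 82.5 CPM in WT (log2 0.36 ± 0.21, FDR 0.997; 0.50, FDR 0.999, without WT IMQ replicate 2). Sema4a followed with 11.7 and 9.45 CPM in KO against 8.42 and 9.63 CPM in WT (log2 0.22 ± 0.15), and Plxnb3 with 38.3 and 42.5 CPM in KO against 31.5 and 38.0 CPM in WT (log2 0.21 ± 0.15). With 2 libraries on each side, 16.3% of genes lay apart upward as Nrp2, Plxnb3 and Sema6c did (33.2% in either direction, 16.9% downward).

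No member passed the threshold with recombinant periostin in culture. In KO cultures 0 of 31 members and 0% of 16756 genes changed by edgeR, with an unadjusted p under 0.05 for 0 members and 155 genes. In WT cultures 0 of 31 members and 0% of 16639 genes changed, with such a p for 2 members and 661 genes. DESeq2 called 0 members in either. The 95% interval of the fold change lay within -1 and 1 on the log2 scale for 27 of 31 members in KO (the others were Sema3a, Sema4b, Sema4g and Sema5b) and for 30 of 31 in WT (the other was Sema3a). In KO cultures the smallest p belonged to Sema3e, with 24.6, 26.9 and 26.8 CPM with rPOSTN against 23.4, 21.2 and 19.6 CPM in controls (log2 0.28 ± 0.13, FDR 0.9996). Sema3g had 123, 144 and 118 CPM with rPOSTN against 111, 115 and 115 CPM in controls, and Sema3b had 367, 376 and 361 CPM against 330, 314 and 359 CPM (log2 0.17 ± 0.11 and 0.14 ± 0.10). These 3 were the members whose KO rPOSTN libraries lay above all KO controls, as 2.49% of genes did (5.35% in either direction, 2.86% downward). KO rPOSTN culture 2 stood apart from its group for Sema4b and Nrp2, chosen here after their values were seen: it had 56.6 CPM of Sema4b, against 19.1 and 24.4 CPM in its group and 24.9, 27.0 and 25.6 CPM in controls, and 163 CPM of Nrp2, against 89.7 and 109 CPM in its group and 108, 122 and 105 CPM in controls. Without that library Sema3e stood at log2 0.26, Sema3g at 0.08 and Sema3b at 0.12 (FDR 0.998 each).

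In WT cultures Plxna4 had 145, 138 and 134 CPM with rPOSTN against 125, 125 and 122 CPM in controls, the smallest p among the members (log2 0.16 ± 0.04, FDR 0.999). The groups lay apart by a small step, with a 95% interval from 0.07 to 0.24. Sema4a had 3.02, 3.18 and 3.37 CPM with rPOSTN against 4.22, 4.17 and 3.92 CPM in controls (log2 -0.36 ± 0.16, FDR 0.999). Sema3a had 15, 24 and 29 counts with rPOSTN against 27, 34 and 38 counts in controls, or 0.796, 0.965 and 1.38 CPM against 1.42, 1.79 and 1.58 CPM (log2 -0.61 ± 0.30, 95% interval -1.24 to 0.02). In KO cultures Sema3a had 1.54, 0.676 and 2.87 CPM with rPOSTN against 1.41, 1.5 and 2.95 CPM in controls, which overlap. With Nrp2, these made 4 of 31 WT members that lay apart (12.9%, where 9.78% of genes did), Plxna4 upward (5.1% of genes) and the other 3 downward (4.68%). The neuropilins stayed close: Nrp2 had 130, 131 and 129 CPM with rPOSTN against 132, 134 and 133 CPM in WT controls, and Nrp1 had 60.1, 56.4 and 51.9 CPM against 58.3, 49.6 and 55.2 CPM. In KO cultures Nrp1 had 43.3, 35.4 and 55.8 CPM with rPOSTN against 47.5, 38.1 and 50.1 CPM in controls. The interaction of genotype and rPOSTN called 0 of 31 members by edgeR and 0 by DESeq2, with 0% of 17519 genes called by edgeR. An unadjusted p under 0.05 was found for 0 members and 342 genes. The 95% interval lay within -1 and 1 for 25 of 31 members (the others were Sema3a, Sema4a, Sema4b, Sema4g, Sema5b and Sema6b). The smallest p there belonged to Sema3g (log2 0.23 ± 0.12), Sema3e (0.23 ± 0.15) and Sema4a (0.44 ± 0.29), each with FDR 1. None of 48 tested partner genes was called in either genotype.

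**Figure D5:**
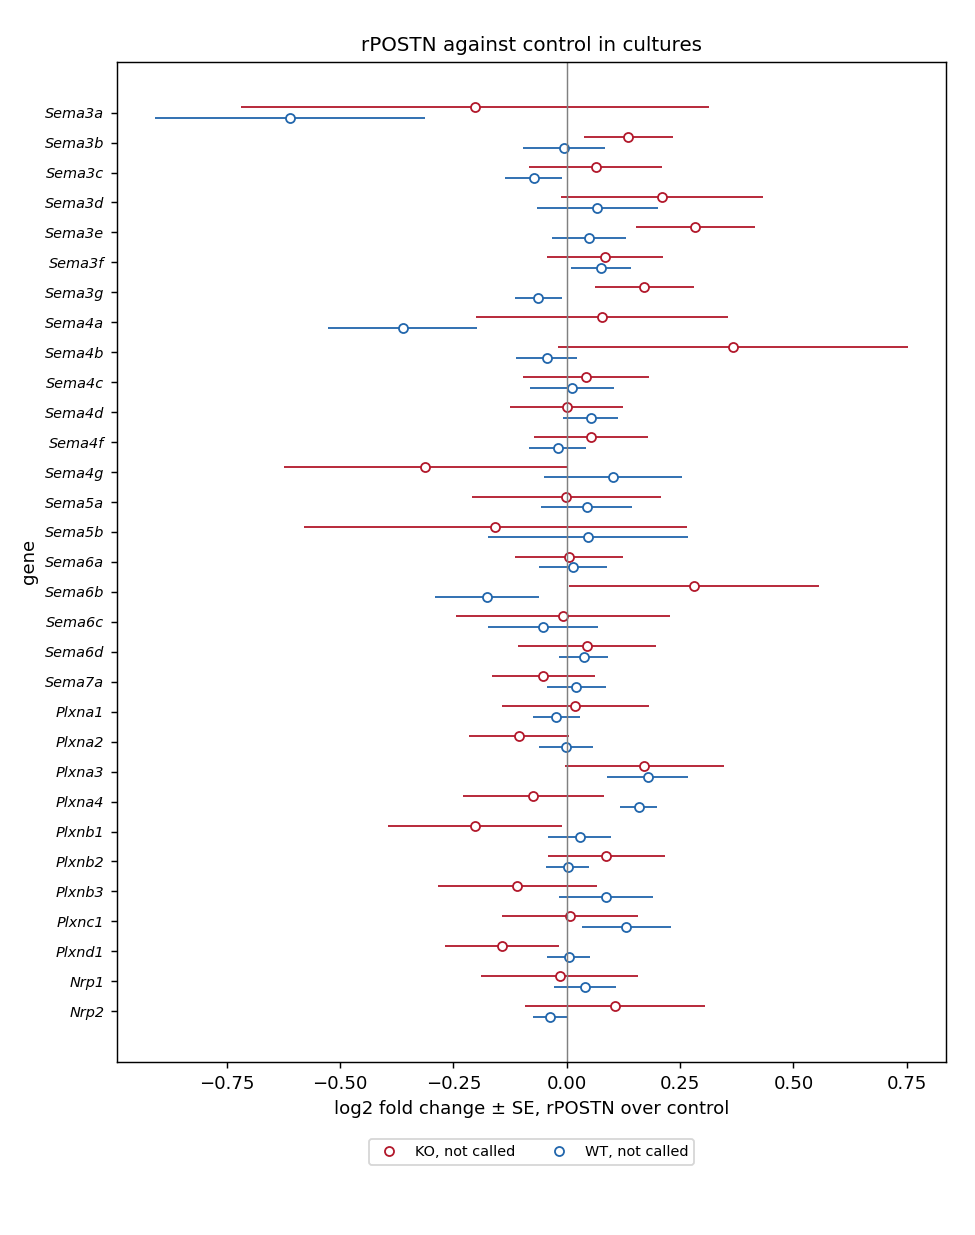
Points give the log2 fold change of the 31 members in rPOSTN over control cultures (3 libraries each) with its SE, KO in red above WT in blue; none passed FDR below 0.05. The wide bars belong to members with few counts or with a deviating KO library, such as Sema3a and Sema4b, and Plxna4 in WT has a narrow one (0.16 ± 0.04).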

How the data were processed

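Raw counts for each Ensembl gene were deposited by the authors as separate tables for ganglia, WT cultures and KO cultures, and all values were whole numbers. GRCm39, TopHat2, Bowtie2 2.2.3 and HISAT2 2.1.0 appear in the submitters' processing notes, with no roles. How reads were counted, with which annotation and strand setting, is not given in the sources used here, so reads of a member and of an overlapping antisense gene cannot be told apart. Libraries were strand-specific (dUTP) from poly-A RNA and read as pairs of 150 bases, per the labels' protocols. Symbols came from a table of Ensembl IDs (55141 of 55487 matched), and exon lengths from GENCODE M21, which rests on another build, so no gene coordinates are given; promoters are from RefSeq on GRCm38.p6. All 31 members matched a symbol.

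Genes passing filterByExpr were scaled by TMM and tested two-sided with edgeR 4.0.16 (quasi-likelihood, robust) in R 4.3.3, adjusting p-values by Benjamini-Hochberg across every gene in the fit (threshold 0.05). SE was taken as log2 fold change divided by the root of F, intervals are 95% from the same fit, and CPM use TMM over all 22 libraries. The 4 ganglion groups shared 1 fit, each genotype's cultures were fitted apart, and culture against ganglia used control cultures and vehicle ganglia of 1 genotype. Overlap of libraries between groups was read on CPM. Alternatives were DESeq2 1.42.0, RLE scaling, no filter, a replicate block, a length offset, other samples in the fit and each library left out. The scripts were tested on simulated counts. Depth was 16666489 to 24118303 counts per library, and precision is limited by the 2 or 3 libraries per group.

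Replicate numbers are shared between groups. Residuals of same-numbered libraries correlated, across genes, at 0.392, 0.717 and 0.636 in KO cultures, 0.413, 0.399 and 0.678 in WT cultures, and 0.869, 0.827 and 0.162 between KO and WT vehicle ganglia. Different numbers also correlated, at 0.338 and 0.364 between replicates 1 and 2 in WT cultures and 0.724 between KO vehicle 2 and WT vehicle 3. All other differently numbered pairs in these comparisons were at 0.0625 or below. Between IMQ and vehicle ganglia, same-numbered libraries correlated at 0.754 and 0.76 in KO and at 0.227 and 0.2 in WT. WT IMQ 2 and WT vehicle 3 correlated at 0.188. With 2 IMQ libraries per genotype, their residuals mirror each other, so these values are not independent. Between KO and WT IMQ ganglia the same-numbered value was 0.041. The reported tests compared group means without pairing, and a replicate block was run only as an alternative. The labels do not say what a number marks. Members and gene lists were chosen with earlier results of these data known. Values per library are given, by rule, for the called members (at most 8 in each direction), the 3 smallest p where none was called, both neuropilins and the 5 highest members per kb in ganglia and in cultures; Plxnb3, Plxnb1 and Sema5a are named for the interaction. KO was not tested against WT in culture. Python 3.11.15 was used for summaries and figures.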

Additional observations from a re-analysis of the deposited data

How the results depend on the processing

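The count of called members moved by more than 1.5 times under IMQ and in no other comparison. In WT IMQ ganglia the count was 0 and became 1 with no filter on low counts (Sema6c, FDR 0.0107), with DESeq2 (Sema6c, FDR 0.00791) and with a length offset (Sema5a), and stayed 0 without any 1 library. In KO IMQ ganglia the count was 1 (Plxnb2) and became 0 with RLE scaling (FDR 0.0555), with only the 2 groups compared (FDR 0.162) and without any 1 library (0 to 0). For the genotype contrasts, both interactions and rPOSTN it was 0 under every alternative run. For cultures against ganglia it ran from 20 to 27 in KO (21 as reported) and from 23 to 28 in WT (26 as reported) over all alternatives, and no named member changed direction. Over all genes, IMQ called 296 genes in KO with DESeq2, 58 with only the 2 groups and 56 to 165 without 1 library (190 as reported), and in WT 369 with DESeq2 and 82 to 160 without 1 library (224 as reported). The IMQ interaction called 2 genes with no filter, 5 with DESeq2 and 1 without WT IMQ replicate 1 (0 as reported). KO against WT called 22 with no filter, 31 with DESeq2, 1 with only the 2 groups and 0 to 2 without 1 library in vehicle ganglia (2 as reported), and 2, 2, 5 and 0 to 1 in IMQ ganglia (1 as reported). rPOSTN in WT called 2 genes with no filter and 8 with the replicate block (0 as reported). The replicate block, which treats equal numbers as pairs, changed 1 call of a named member: Sema4b in WT cultures against ganglia missed the threshold (log2 -0.30, FDR 0.0534). The cause of these differences was not tested. Counts limit Sema3a, with 3 to 13 per ganglion library, and Sema5b, with 36 to 128 per library.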
